A study of Mus musculus with 27 samples.

Results

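Gene expression in 3T3-L1 cells that had spent 8 h in adipogenic mixture was compared with that of uninduced cells. The comparison rests on 6 of the 27 arrays of the series: 3 of vector cells at 8 h (titles WT_T8_1 to WT_T8_3) and 3 of vector cells at 0 h (WT_T0_1 to WT_T0_3). All 19938 genes with a probe set of 1 gene symbol were tested. 3T3-L1 is a clonal mouse fibroblast line whose cells can become fat cells. Both groups carried the empty pMIG retroviral vector and stood at 2 days past confluence when the 0 h cells were taken, just ahead of induction. The 8 h cells then received fetal calf serum at 10%, 350 nM insulin, 0.5 mM isobutylmethylxanthine (IBMX), 250 nM dexamethasone and 400 nM biotin. The earlier growth medium had newborn or fetal calf serum, as the labels put it, without saying which culture had which. No array of cells kept for 8 h without mixture is among the groups, so the agents, the fresh serum and the hours that passed cannot be told apart. The vector cells at 4 h (3 arrays, same mixture) served as a second point of comparison.

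The main agents act by separate routes. Insulin at such a dose acts through the insulin receptor and also the IGF-1 receptor, both of which signal through the IRS adaptors to PI3 kinase and Akt. IBMX blocks the phosphodiesterases that break down cAMP, so protein kinase A is active and CREB is phosphorylated. Dexamethasone binds the glucocorticoid receptor (the product of Nr3c1), which moves to the nucleus and acts on chromatin directly. In this line the mixture is known to bring up C/EBP beta and delta within hours, after which the growth-arrested cells re-enter the cell cycle for a limited number of divisions and only later express C/EBP alpha, PPAR gamma and the genes of the mature fat cell.

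Values are log2 array levels. Differences are log2 levels at 8 h minus those at 0 h, given ± the standard error of the fit, with n = 3 arrays per group. A gene is called higher or lower, or said to have risen or fallen, where its Benjamini-Hochberg adjusted p from limma was under 0.05. By that rule 46.1% of all genes differed: 4822 genes (24.2%) were higher and 4365 (21.9%) were lower at 8 h. Both shares stand beside every list count against 0 h below. With each array centred on its own median, the counts were 7140 higher and 3821 lower, which takes the share of higher genes among those called from 52.5% to 65.1%. The median difference of all genes was 0.07, and 0.14 after such centring, so small rises in particular depend on the scaling. At least 2-fold changes were rarer: 607 genes (3.04%) rose and 770 (3.86%) fell that far, 79 rose and 91 fell at least 4-fold, and 9 rose and 3 fell at least 16-fold. The 3 arrays at 8 h lay wholly above the 3 at 0 h for 5478 genes (27.5%) and wholly below for 4659 (23.4%), together 50.8% of all genes.

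**Figure D1:**
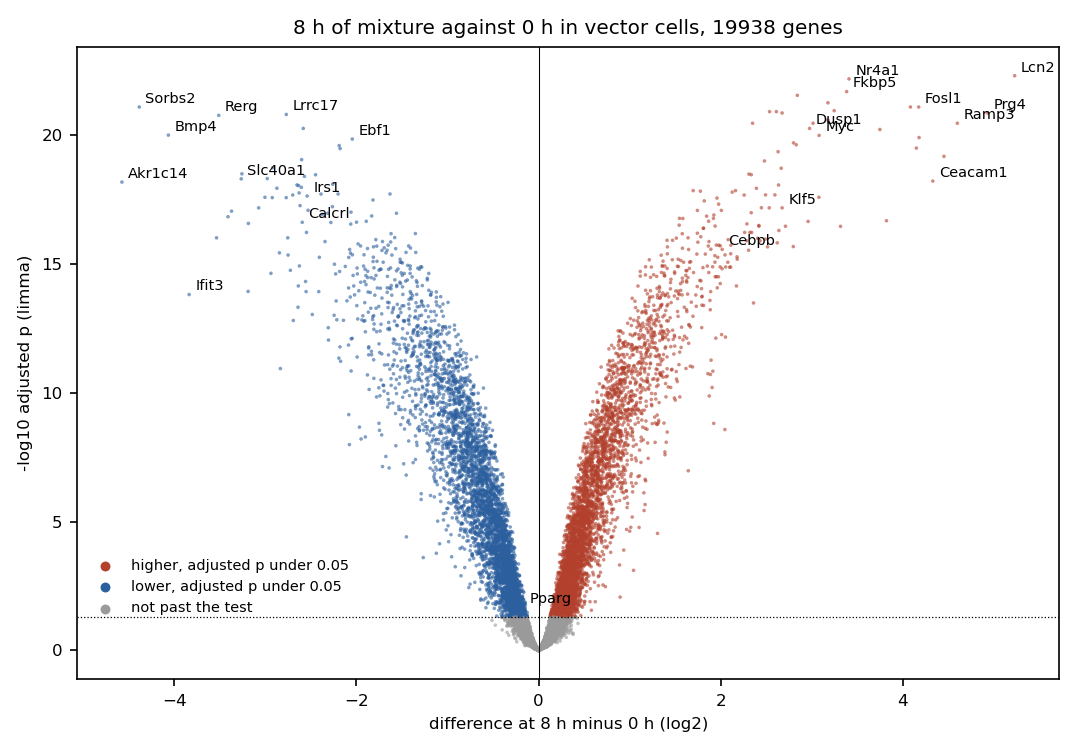
Difference at 8 h minus 0 h (log2, horizontal axis) against the -log10 adjusted p of the limma fit (vertical axis) for all 19938 genes, 3 arrays per group. Red points are the 4822 genes called higher, blue points the 4365 called lower, grey points were not past the test, and the dotted line marks an adjusted p of 0.05. Lcn2 lies farthest to the right and Akr1c14 farthest to the left, while Pparg lies close to the line.

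Arrays of a group were close. Correlations over all genes ran from 0.9972 to 0.9982 among the 0 h arrays and from 0.9931 to 0.9977 among the 8 h arrays, against 0.9619 to 0.9686 between 0 h and 8 h. Replicate 2 stood slightly apart from the other 8 h arrays, and without it the counts were 5804 higher and 4540 lower. Isl1, the gene the series overexpresses, was low in the vector arrays used here (7.37, 7.47 and 7.17 at 0 h and 7.97, 8.00 and 8.09 at 8 h), a rise of 0.69 ± 0.11. At 48 h, however, the arrays labelled vector had Isl1 between 12.72 and 12.79 and those labelled ISL1 between 7.47 and 8.01, against their labels. The 48 h arrays enter here only through the pooled spread. Leaving them out with the ISL1 arrays gave 4674 higher and 4318 lower genes.

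Fibroblast and preadipocyte markers were high in the level range in all 6 arrays, and 8 of the 11 measured were lower at 8 h, led by Pdgfrb (12.67, 12.40 and 12.46 at 0 h and 10.78, 10.77 and 10.82 at 8 h) and Pdgfra. Their mean level was 13.22 to 13.30 in the 0 h arrays, against 12.70 to 12.75 later. Of 7 mature adipocyte markers 6 fell and 0 rose. Their mean level was 9.81 to 10.03 before induction, against 9.30 to 9.36 after. Blood cell markers gave 2 rises and 1 fall among 9, with mean levels of 7.76 to 7.82 and 7.86 to 7.97, with Cd68 and Cd14 up by 0.90 ± 0.080 and 0.35 ± 0.083 and Lyz2, a lysozyme, at 12.10, 12.03 and 12.03 at 0 h and 11.38, 11.43 and 11.35 at 8 h. Ptprc, which marks all white blood cells, and Adgre1, which marks macrophages, were at 6.25 to 6.37 and 5.90 to 6.14 in the 6 arrays, above 15.1% and 12.2% of all genes in mean level, and neither was past the test. Of 8 endothelial markers Cdh5 rose (mean levels of 7.03 to 7.07 and 7.11 to 7.35), of 8 epithelial markers Krt14 and Krt19 (7.48 to 7.56 and 7.48 to 7.74), and of 8 skeletal muscle markers Des fell (7.92 to 8.02 and 7.76 to 7.96). Of 6 bone and cartilage markers Alpl rose and Sox9 fell (8.20 to 8.28 and 8.44 to 8.63). Markers of these 5 cell types are named after their values were seen. The Krt14 call was lost without any 1 of the arrays other than 8 h replicate 2 (adjusted p from 0.0674 to 0.247), and that of Krt19 without 0 h replicate 1 or 8 h replicate 3 (0.104 and 0.0996). Quantile normalization took both calls too (adjusted p = 0.0595 and 0.102). The replicate block took that of Krt14 (0.0532), and the 6 arrays alone that of Krt19 (0.0751). The part of other cells in the results was not tested. In bulk RNA, fewer cells of a type and less RNA per cell cannot be told apart.

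The 15 largest rises were those of Lcn2, Prg4, Ramp3, Fgl2, Ceacam1, Tcim, Fosl1, Cd33, Serpina3n, Ctla2a, Gfpt2, Nr4a1, Fkbp5, Cd24a and Slc16a1. Lcn2 encodes lipocalin-2, a secreted protein that binds iron carriers. Its levels were 8.14, 7.96 and 7.65 at 0 h and 13.17, 13.17 and 13.09 at 8 h, a rise of 5.23 ± 0.094 (37.5-fold, adjusted p = 4.83e-23), and every 8 h array lay more than 4 log2 units above every 0 h array. Prg4 encodes lubricin, the lubricating glycoprotein of joints, and stood at 6.84, 6.75 and 6.42 at 0 h and 11.53, 11.71 and 11.54 at 8 h (30.4-fold). Ramp3 encodes a partner protein that turns the calcitonin-like receptor into a receptor for adrenomedullin. Its arrays gave 7.62, 7.41 and 7.74 at 0 h and 12.40, 12.08 and 12.08 at 8 h, a rise of 4.60 ± 0.11. The arrays of both groups were again far apart.

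Several of the other leaders encode surface or secreted proteins. Fgl2, a fibrinogen-like protein, rose from 6.47, 6.75 and 6.68 to 10.92, 11.32 and 11.02. Ceacam1, a cell adhesion protein that also takes part in insulin clearance in liver, had the widest 0 h spread of the leaders, with 6.26, 5.93 and 5.46 against 10.13, 10.21 and 10.29 at 8 h. Cd33, a sialic acid binding lectin best known from myeloid cells, rose by 4.15 ± 0.11. Cd24a, a small mucin-like surface protein used as a marker of early adipocyte precursors, rose by 3.32 ± 0.13.

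Metabolic genes were also among the leaders. Slc16a1 encodes the lactate and ketone carrier MCT1 and moved from 9.28, 9.18 and 9.12 to 12.35, 12.47 and 12.49. Gfpt2, an enzyme at the entry of the hexosamine pathway, rose 13.4-fold. Tcim, Nr4a1, Gfpt2 and Fgl2 were already lower than at 4 h, by 1.25 ± 0.11, 0.70 ± 0.064, 0.67 ± 0.093 and 0.61 ± 0.12, as were Slc16a1 and Fkbp5 by smaller amounts. Cd33, Cd24a, Lcn2, Serpina3n and Ramp3 were higher than at 4 h, by 0.94 ± 0.11, 0.88 ± 0.13, 0.74 ± 0.094, 0.68 ± 0.090 and 0.62 ± 0.11.

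Among the 15 largest falls, Akr1c14 led with 10.34, 10.50 and 10.58 at 0 h and 5.61, 6.23 and 5.84 at 8 h, and fell by 4.58 ± 0.14 (23.8-fold, adjusted p = 6.51e-19). It encodes a hydroxysteroid dehydrogenase of the aldo-keto reductase family. Sorbs2, an adaptor that links actin fibres to adhesion sites and signalling proteins, fell from 11.32, 11.27 and 11.12 to 6.86, 6.97 and 6.72. Bmp4, a bone morphogenetic protein known to commit precursor cells to the fat lineage, came next, with 11.83, 11.77 and 11.73 at 0 h and 7.64, 7.77 and 7.72 at 8 h, and fell by 4.07 ± 0.10 (16.7-fold). The groups were separated by about 4 log2 units for each of these genes.

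Next came Ifit3, Plscr2, Rerg, Rasgrp3, Rab7b, Slc40a1, Klhl24, Trim30d, Cdc42ep3, Hacd4, Adamts5 and Tlr3. Rerg and Rasgrp3 both belong to Ras biology, Rerg as a Ras-like protein that slows growth and Rasgrp3 as an exchange factor that loads Ras and Rap with GTP. They fell by 3.51 ± 0.082 and 3.41 ± 0.12. Slc40a1 encodes ferroportin, the iron exporter, and went from 9.35, 9.38 and 9.21 to 6.18, 5.94 and 6.03. Adamts5, a protease that cuts aggrecan and versican, went from 12.80, 12.57 and 12.62 to 9.58, 9.92 and 9.46. Tlr3, the endosomal sensor of double-stranded RNA, fell by 2.98 ± 0.092. In each of these genes the 3 arrays at 8 h lay below the 3 at 0 h, as the naming rule required.

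**Figure D2:**
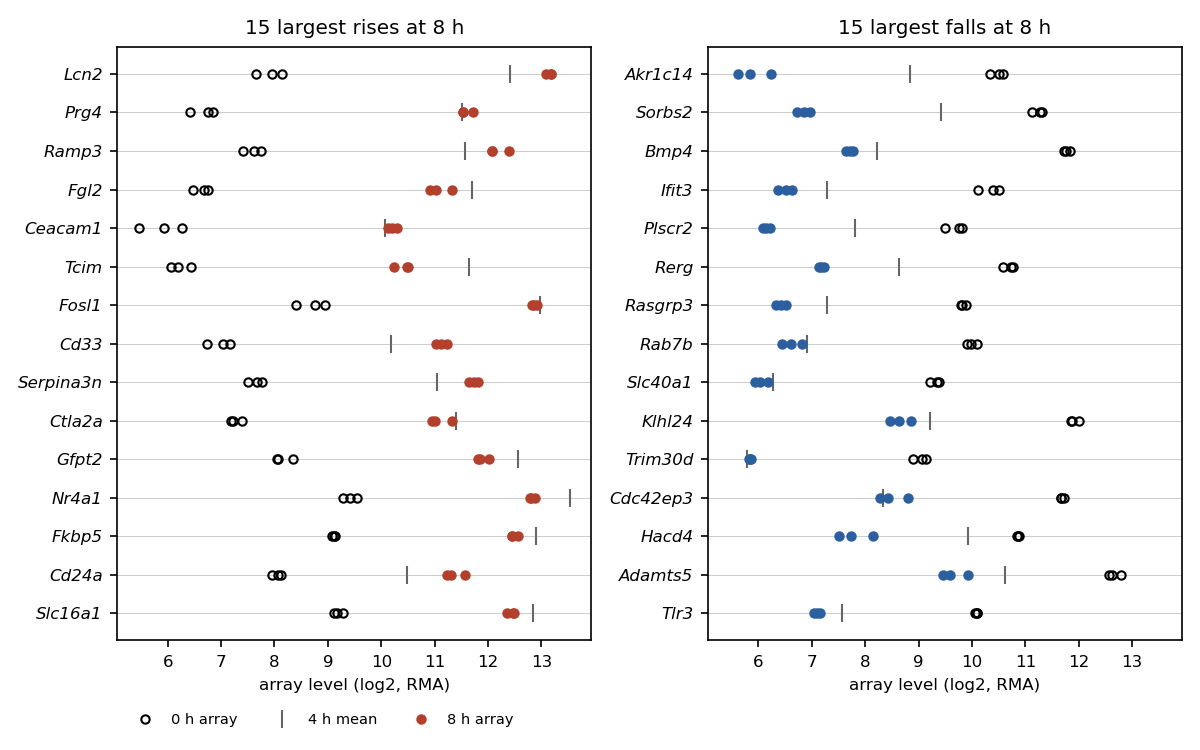
Array levels (log2, RMA) of the 15 genes with the largest rises (left) and the 15 with the largest falls (right). Open circles are the 3 arrays at 0 h, filled circles the 3 at 8 h and vertical ticks the 4 h mean. The open and filled circles of each gene are well apart. The 4 h tick of Akr1c14, Sorbs2 and Hacd4 lies between them, and that of Nr4a1, Gfpt2 and Tcim lies beyond the 8 h arrays.

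The glucocorticoid target list gave 15 higher and 6 lower of 25 measured genes, with a median difference of 0.75 against 0.07 over all genes. Fkbp5, a co-chaperone of the receptor and a standard read-out of dexamethasone, rose from 9.07, 9.13 and 9.11 to 12.45, 12.57 and 12.44. Glul, glutamine synthetase, moved from 9.76, 9.99 and 9.86 to 13.03, 13.09 and 13.02, and Dusp1, a phosphatase that switches off MAP kinases, from 10.90, 10.82 and 10.58 to 13.76, 13.70 and 13.77. Metallothioneins, zinc-binding proteins induced by both glucocorticoids and metals, were close to the top of the array range at 8 h, with Mt1 at 11.30, 11.24 and 11.16 at 0 h and 13.95, 13.89 and 13.88 at 8 h and Mt2 up by 2.45 ± 0.086. The receptor gene itself was among the 6 members that fell, and the rest of these were targets. Nr3c1 fell by 1.49 ± 0.091, with 10.94, 11.02 and 11.11 at 0 h and 9.50, 9.76 and 9.33 at 8 h.

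The cAMP list of feedback regulators and targets gave 13 higher and 7 lower of 26, or 4 lower after median centring. Nr4a1, an orphan nuclear receptor induced by cAMP in many cells, was at 9.41, 9.55 and 9.29 at 0 h and 12.88, 12.79 and 12.81 at 8 h. Rgs2, which shortens G protein signalling, was at 9.94, 9.90 and 9.88 at 0 h and 12.45, 12.55 and 12.56 at 8 h. Of 8 phosphodiesterase genes in the list 5 rose and 2 fell: Pde4d rose by 1.54 ± 0.070 and Pde10a by 1.94 ± 0.074, while Pde4a and Pde8a, named after their values were seen, fell by 0.44 ± 0.071 and 0.21 ± 0.080. The call of Pde8a was lost without 0 h replicate 1 or 2 or 8 h replicate 2 or 3 (adjusted p from 0.0661 to 0.128) and after median centring. It was also lost with the 6 arrays alone and with an intensity trend and robust prior (adjusted p = 0.0735 and 0.0549). Akap12, a scaffold that anchors protein kinase A, fell by 1.60 ± 0.089, and Ppargc1a, a coactivator of mitochondrial genes that cAMP raises in liver and brown fat, fell by 0.75 ± 0.10. Relative to 4 h, 15 of the 26 were lower and 2 were higher, where 10.2% and 13.7% of all genes were. The same shares stand beside every list count against 4 h below.

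CREB binds the cAMP response element, whose core is TGACG. In the 250 bases ahead of the RefSeq start (GRCm38.p6), on either strand, that core was found in 24.1% of 15614 genes with a promoter entry and in 13 of 20 genes of the cAMP list. It was in 5 of the 10 that rose and in 5 of the 6 that fell. The full element TGACGTCA, which contains the core, was found in 2.33% of all genes and in 2 of the 20. It was in 0 of the 10 that rose and in 1 of the 6 that fell. Of the genes that rose, the 3 with the largest change and a match are printed 5′ to 3′ on the strand of the gene, with each core in capitals, to show the letters behind that count. They cover, for Nr4a1, chr15:101266766-101266845 on the plus strand, for Rgs2, chr1:144004172-144004256 on the minus strand, and for Nr4a3, chr4:48045118-48045202 on the plus strand.
Nr4a1: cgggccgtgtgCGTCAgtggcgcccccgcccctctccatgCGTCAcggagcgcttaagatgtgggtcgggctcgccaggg
Rgs2: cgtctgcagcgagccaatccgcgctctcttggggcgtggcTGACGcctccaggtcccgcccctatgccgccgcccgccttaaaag
Nr4a3: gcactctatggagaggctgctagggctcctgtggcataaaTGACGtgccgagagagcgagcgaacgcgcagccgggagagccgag
The match nearest to the start begins 40 bases ahead of it in Nr4a1, 67 in Rgs2 and 147 in Nr4a3. All 3 genes were above 0 h and below 4 h: Nr4a3, a second member of the same receptor family, stood at 6.64, 6.81 and 6.64 at 0 h and 8.16, 8.17 and 8.11 at 8 h and was 1.92 ± 0.12 below its 4 h mean. A match is a string of letters and no evidence of binding.

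Insulin and IGF genes split between 7 higher and 11 lower of 23 (30.4% and 47.8%, against 24.2% and 21.9% of all genes). The adaptor genes moved in opposite directions. Irs2 rose from 9.21, 8.76 and 8.86 to 10.68, 10.65 and 10.67, while Irs1 fell from 11.94, 11.76 and 11.80 to 9.41, 9.33 and 9.12, and so fell by 2.54 ± 0.085. Of the PI3 kinase genes in the list, Pik3ca (catalytic subunit) and Pik3r3 (regulatory subunit) fell by 0.77 ± 0.078 and 1.01 ± 0.11. Another regulatory subunit gene, Pik3r1, named after its values were seen, rose by 0.20. Whether that call held under other settings of the fit was not followed. The receptor genes changed little: Insr fell by 0.31 ± 0.088 and Igf1r by 0.31 ± 0.095, a call for Igf1r that was lost without 0 h replicate 1 or 8 h replicate 3 (adjusted p = 0.111 and 0.0667). Igf1, the ligand, fell by 1.50 ± 0.068 and Igfbp4, a binding protein that holds it back, rose by 0.77 ± 0.065.

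Immediate early genes, which respond to serum within minutes, were still above their start in 16 of 27 at 8 h and below it in 4. Every one of the 20 that differed from 4 h was lower than at 4 h. Fosl1, an AP-1 subunit, had 8.75, 8.94 and 8.41 at 0 h and 12.91, 12.83 and 12.87 at 8 h, and Myc, the transcription factor that drives growth genes, had 9.59, 9.64 and 9.30 at 0 h and 12.64, 12.55 and 12.58 at 8 h. Neither of these differed from 4 h past the test (-0.11 ± 0.092 and -0.11 ± 0.079). Dusp6, the phosphatase of ERK, rose by 2.42 ± 0.092 but was 0.87 ± 0.092 below 4 h. Klf6, a zinc finger factor of the same early class, had fallen below its start, from 11.22, 11.29 and 11.24 to 9.23, 9.52 and 9.38.

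Ras and MAP kinase feedback genes gave 10 higher and 8 lower of 23, and 14 were lower than at 4 h. Dusp14, another MAP kinase phosphatase, was higher than at 0 h by 2.26 ± 0.089 and higher than at 4 h by 0.59 ± 0.089. Rasd1, a Ras-like protein named for its induction by dexamethasone, rose by 2.64 ± 0.10. Rgs16 and Rgs3, which act on G proteins as Rgs2 does, fell by 1.52 ± 0.068 and 1.11 ± 0.087.

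The adipogenic transcription factor list had 6 genes higher and 10 lower of 24. Cebpb was at 9.27, 9.18 and 8.95 at 0 h and 11.23, 11.12 and 11.10 at 8 h, a rise of 2.02 ± 0.086 (4.04-fold). Klf5, a factor that acts with C/EBP beta and delta on the Pparg gene, was at 9.05, 9.16 and 9.44 at 0 h and 11.88, 11.96 and 11.84 at 8 h, a rise of 2.67 ± 0.094. Cebpd was past its peak: its mean was 8.39 ± 0.051 (SD) at 0 h, 10.96 ± 0.096 at 1 h, 9.99 ± 0.073 at 4 h and 9.05 ± 0.19 at 8 h. Cebpa, at 9.20, 9.10 and 9.06 at 0 h and 8.98, 9.06 and 8.83 at 8 h, overlapped between the groups and was not past the test (-0.16 ± 0.10, adjusted p = 0.191).

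Pparg, the master regulator of the fat cell, showed 11.86, 11.72 and 11.75 at 0 h and 11.51, 11.71 and 11.60 at 8 h. The difference was -0.17 ± 0.060 (adjusted p = 0.021), and the highest 8 h array lay just under the lowest 0 h array. That call was lost with the 6 arrays alone, after median centring and without 0 h replicate 1, 8 h replicate 1 or 8 h replicate 3 (adjusted p = 0.129, 0.161, 0.109, 0.142 and 0.0538). Klf4, an early factor upstream of Cebpb, was not past the test (-0.13 ± 0.080, adjusted p = 0.204). Of the factors already present before induction, Ebf1 fell from 13.01, 12.99 and 13.01 to 10.93, 10.99 and 10.95, and Nfib fell by 1.19 ± 0.075.

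The list drawn up as adipogenesis repressors had 12 genes lower and 6 higher of 26. These shares of 46.2% and 23.1% stand against 21.9% and 24.2% of all genes. The direction in which each member acts in these cells was not tested. Klf7 fell from 11.34, 11.12 and 11.14 to 8.48, 8.66 and 8.36 and Runx1t1, a corepressor, from 11.14, 11.10 and 11.12 to 8.40, 8.68 and 8.47. Zfp521, which opposes Ebf1 activity, fell by 1.56 ± 0.078, Gata2, a repressor of Pparg in preadipocytes, by 1.49 ± 0.075 and Rb1 by 1.44 ± 0.14. Foxc2 and Id2 were the largest against that majority, with rises of 1.38 ± 0.079 and 0.73 ± 0.071.

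Genes of the mature fat cell were lower than at the start in 11 and higher in 5 of 22. Their shares of 50.0% and 22.7% stand against 21.9% and 24.2% of all genes. Adiponectin (Adipoq) read 10.94, 10.73 and 10.60 at 0 h and 9.93, 10.13 and 10.04 at 8 h and the lipid droplet coat gene Plin1 10.05, 10.02 and 10.02 at 0 h and 9.02, 9.19 and 9.16 at 8 h, with no overlap in either. Fabp4, a fatty acid carrier, fell by 0.44 ± 0.085 and Aqp7, a glycerol channel, by 1.06 ± 0.11. In the same list the enzyme genes of fatty acid synthesis Fasn and Acaca rose: Fasn moved from 11.52, 11.21 and 11.24 to 12.42, 12.35 and 12.30, and Acaca, which makes malonyl-CoA, rose by 0.87 ± 0.099.

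**Figure D3:**
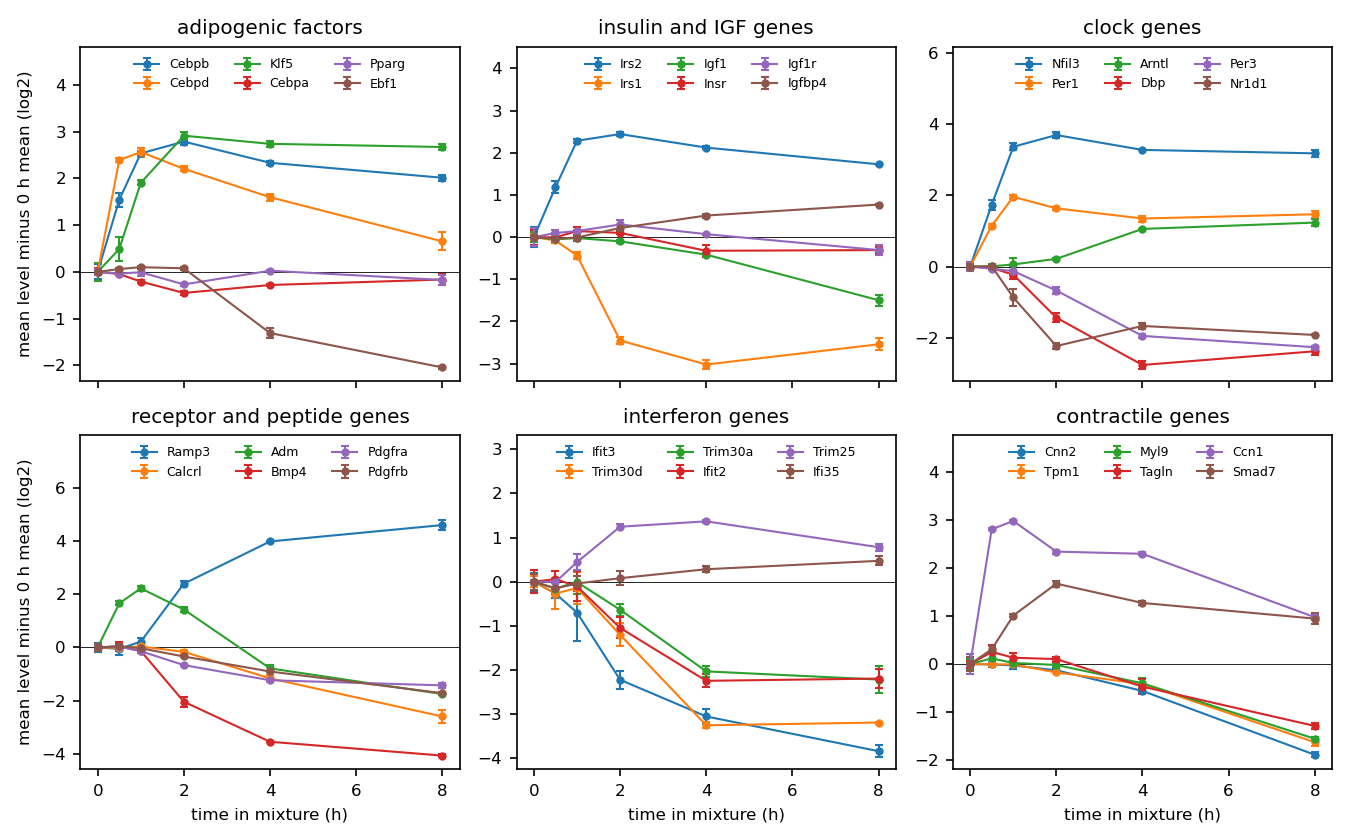
Mean level minus the 0 h mean (log2, vertical axis) against hours in mixture (horizontal axis) for 6 sets of named genes in vector cells. Points are means of 3 arrays and bars are the SD of the 3 arrays at that time. Cebpd, Adm and Ccn1 peak by 1 h and come down by 8 h, Nfil3 and Klf5 stay high, and Bmp4, Ebf1, Calcrl and the contractile genes Cnn2, Tpm1 and Myl9 are lowest at 8 h.

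Ribosome biogenesis was the most uniform of the lists by share of members called higher. Of 39 measured genes 38 rose, 31 of them at least 2-fold, and 1 fell. Ddx21, an RNA helicase of the nucleolus, moved from 9.93, 9.86 and 9.68 to 11.89, 12.01 and 11.89. Rrp9, which binds the U3 small nucleolar RNA, moved from 8.90, 9.06 and 8.92 to 10.94, 11.00 and 10.95, and the RNA polymerase I subunits Polr1b and Polr1e rose by 2.05 ± 0.094 and 1.95 ± 0.094. The member that fell was Ubtf, the factor that assembles polymerase I at rRNA genes (-0.44 ± 0.060). The list's median difference was 1.37. Of cytosolic ribosomal protein genes 3 were higher, 3 lower and 16 not past the test, or 7 higher and 0 lower after median centring, 7 lower after quantile normalization, and 5 higher and 7 lower with an intensity trend and robust prior. With the 6 arrays alone 0 were lower. Without 0 h replicate 1 there were 5 higher, and 0 were lower without 0 h replicate 2, 8 h replicate 1 or 8 h replicate 3 and 1 without 0 h replicate 3. The sign of their median depended on the scaling.

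Other parts of the growth machinery were also higher. Translation factors rose in 15 and fell in 3 of 22 (5 fell with the intensity trend), with Eif4e, the cap-binding protein, at 10.23, 10.42 and 10.34 at 0 h and 11.49, 11.53 and 11.45 at 8 h, and Eif4ebp1, which blocks Eif4e, down by 0.32 ± 0.056. Aminoacyl-tRNA synthetases rose in 12 and fell in 2 of 18 (1 fell after median centring). Hars, which charges histidine, rose most, by 1.17 ± 0.087, and Cars, which charges cysteine, fell by 0.47 ± 0.078. Purine and pyrimidine synthesis rose in 18 of 21. Ppat, the committed enzyme of purine synthesis, went from 9.33, 9.35 and 9.16 to 10.95, 11.21 and 11.05, and Ctps, which makes CTP, rose by 1.67 ± 0.12 while its paralogue Ctps2 fell by 1.09 ± 0.071. In the polyamine list 6 of 9 rose, with Srm at 11.98, 11.93 and 11.91 at 0 h and 13.40, 13.47 and 13.37 at 8 h and Odc1, the entry enzyme, up by 1.10 ± 0.070.

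One-carbon enzymes rose in 6 and fell in 1 of 13. Mthfd1 went up by 1.45 ± 0.079 and was still 0.73 ± 0.079 above 4 h, and Mthfd1l went up by 1.28 ± 0.080, whereas the mitochondrial enzyme Aldh1l2 fell by 1.17 ± 0.11. Amino acid transporters split between 7 higher and 6 lower of 20. Slc7a6 rose by 1.49 ± 0.070 and the glycine transporter Slc6a9 fell from 11.27, 11.15 and 11.04 to 8.98, 9.09 and 9.13. Genes of the ATF4 amino acid response were lower in 8 and higher in 3 of 17 (5 higher after median centring). Chac1, which degrades glutathione, fell by 2.10 ± 0.11, Trib3 by 0.86 ± 0.091 and Ddit3 by 0.91 ± 0.084, while Ddit4, also a glucocorticoid target, rose by 1.52 ± 0.070. Atf4 itself was not past the test (0.11 ± 0.061), except after median centring (adjusted p = 0.0341).

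Most genes of the chaperone, unfolded protein response and proteasome lists rose. Heat shock chaperones were higher in 17 of 19. Hsph1 had 10.18, 10.22 and 9.97 at 0 h and 12.22, 12.31 and 12.32 at 8 h, Hspb1 rose by 2.08 ± 0.093 and the mitochondrial chaperonin Hspd1 by 1.22 ± 0.065. The cytosolic chaperonin and prefoldin list had 10 higher of 14, and 8 of the 14 were higher than at 4 h. Cct3 rose by 1.19 ± 0.072 and Pfdn5 fell by 0.36 ± 0.072. The unfolded protein response list had 13 higher and 2 lower of 20. Hyou1, an endoplasmic reticulum chaperone, moved from 10.27, 10.07 and 10.00 to 11.47, 11.53 and 11.31 and was 0.72 ± 0.068 above 4 h, and Herpud1 fell by 0.92 ± 0.079. Proteasome subunits rose in 29 of 31 and fell in 0 (1 fell after quantile normalization). The rises were small: the median was 0.40 and the largest, Psmc4, was 0.78 ± 0.055. Nuclear pore and transport genes rose in 25 of 26, with Ran, the GTPase of nuclear transport, at 11.34, 11.38 and 11.25 at 0 h and 12.37, 12.38 and 12.38 at 8 h.

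Lysosome and autophagy genes fell in 13 and rose in 5 of 30, with 8 rises after median centring. Ctso, a cathepsin, fell from 10.86, 10.83 and 10.89 to 9.17, 9.57 and 9.21, Ulk2, a kinase that starts autophagy, fell by 0.92 ± 0.089, and Atg2b, which moves lipid to the growing autophagosome, rose by 0.73 ± 0.074.

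Mitochondrial import genes rose in 17 of 20, led by Timm8a1 (7.63, 7.59 and 7.45 at 0 h and 9.65, 9.90 and 9.63 at 8 h) and Tomm70a (1.34 ± 0.080). Mitochondrial ribosomal proteins rose in 20 of 30, none of them 2-fold, with Mrpl12 up by 0.89 ± 0.088. Respiratory chain subunits rose in 13 of 29, with a median of 0.11. That count was 8 without 0 h replicate 2, 8 without 8 h replicate 2 and 7 with the 6 arrays alone. Cox5a, a subunit of cytochrome c oxidase, rose by 0.84 ± 0.084.

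**Figure D4:**
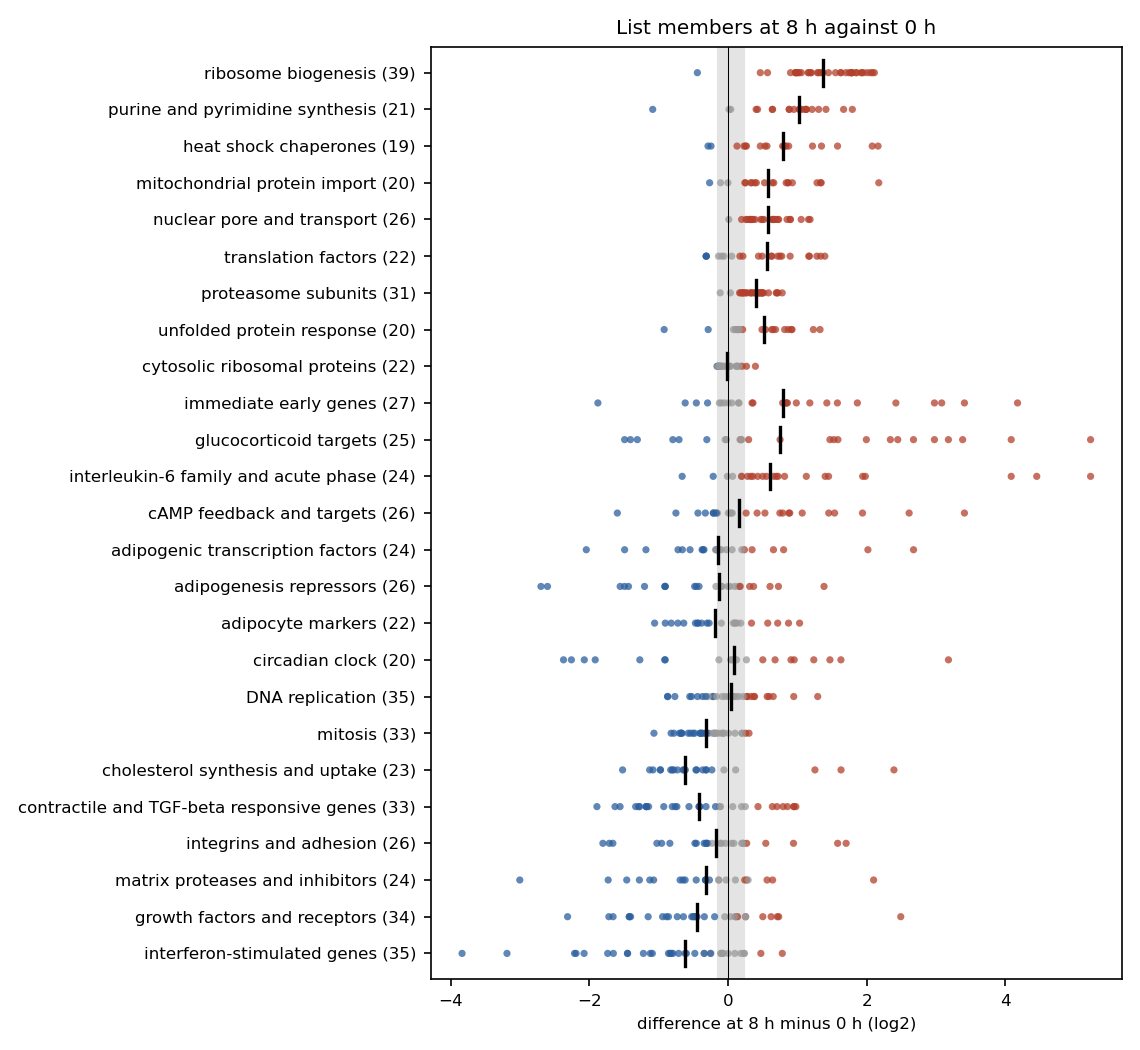
Difference at 8 h minus 0 h (log2, horizontal axis) of each measured member of 25 gene lists (rows, number of members in brackets). Red points are genes called higher, blue points genes called lower and grey points genes not past the test; black bars are list medians and the grey band holds the middle 50% of all 19938 genes. The ribosome biogenesis median of 1.37 lies farthest to the right, and the interferon and cholesterol medians, both -0.62, lie farthest to the left.

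Cell cycle genes were in motion between 4 h and 8 h. DNA replication genes were split against 0 h, with 10 higher, 9 lower and 16 not past the test among 35. These shares of 28.6% higher and 25.7% lower were near the 24.2% and 21.9% of all genes. Against 4 h, 25 were higher and 1 was lower, where 13.7% and 10.2% of all genes were. Rrm2, the ribonucleotide reductase subunit made in S phase, was highest, with 10.86, 10.86 and 10.73 at 0 h and 11.99, 12.20 and 12.15 at 8 h. Orc1, which marks replication origins, rose by 0.95 ± 0.12 and Pola1, the polymerase that starts each strand, was still 0.87 ± 0.12 below its start. Pole2 and Rfc3, a polymerase and a clamp loader subunit, were among the 10 largest rises since 4 h, by 1.43 ± 0.11 and 1.22 ± 0.10: Rfc3 went from a mean of 10.19 ± 0.090 (SD) at 0 h to 8.76 ± 0.095 at 4 h and 9.98 ± 0.13 at 8 h.

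Mitosis genes were still below their start in 18 of 33. Against 4 h, 21 were higher and 0 were lower. Ccnb2, a cyclin of mitosis, was lowest relative to 0 h, with 11.89, 11.91 and 11.80 at 0 h and 10.78, 10.88 and 10.72 at 8 h, and did not differ from 4 h past the test (-0.05 ± 0.074). Mki67, the proliferation marker, fell by 0.78 ± 0.090 from 0 h and was 0.33 ± 0.090 above 4 h, a call lost without 8 h replicate 2 (adjusted p = 0.0617). Nusap1, a spindle protein, was 0.68 ± 0.088 above 4 h. Among G1 regulators, 13 rose and 10 fell of 28. Besides Myc, Gadd45g rose by 1.80 ± 0.095. Pocket protein genes Rb1 and Rbl2 fell, Rbl2 by 1.10 ± 0.087, and Cdkn2c, an inhibitor of CDK4 and CDK6, fell by 1.26 ± 0.077. In the p53 target list 5 of 18 rose (27.8%) and 6 fell (33.3%), against 24.2% and 21.9% of all genes. Fas, the death receptor, showed the largest change there, from 9.18, 9.47 and 9.18 to 7.47, 7.21 and 7.55.

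Sugar metabolism rose in 16 and fell in 9 of 29 genes. Hk2, hexokinase 2, was at 7.98, 8.04 and 7.99 at 0 h and 10.08, 10.36 and 10.12 at 8 h but 1.13 ± 0.097 below 4 h. Pdk2, which inhibits pyruvate dehydrogenase, fell by 1.88 ± 0.091, and the glycogen-targeting subunits Ppp1r3c and Ppp1r3d fell by 2.07 ± 0.11 and 1.61 ± 0.091. Among antioxidant and pentose phosphate genes, 9 rose and 8 fell of 24. Gclc, the rate-limiting enzyme of glutathione synthesis, went from 9.65, 9.67 and 9.48 to 12.32, 12.46 and 12.42, and Srxn1 rose by 1.74 ± 0.075.

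Cholesterol genes were lower in 18 and higher in 3 of 23, a share of 78.3% lower against 21.9% of all genes. Fdft1, squalene synthase, fell from 12.24, 12.08 and 12.11 to 10.55, 10.82 and 10.50 and Fdps by 1.13 ± 0.073. The 3 that rose were Pmvk, Hsd17b7 and Abca1. Pmvk, phosphomevalonate kinase, was at 8.68, 8.67 and 8.70 at 0 h and 10.94, 11.20 and 11.09 at 8 h, and Abca1, which exports cholesterol from cells, rose by 1.63 ± 0.092. Fatty acid and triglyceride synthesis went the other way, with 15 higher and 5 lower of 25: Acsl4, which activates arachidonic acid, went from 10.35, 10.23 and 10.24 to 12.75, 12.84 and 12.83, while the desaturases Fads1 and Fads2 fell by 0.80 ± 0.062 and 1.35 ± 0.053. Of lipolysis and oxidation genes 8 fell and 3 rose of 21, or 6 rose after median centring and 5 after quantile normalization. Abhd5, the coactivator of the main triglyceride lipase, rose by 1.20 ± 0.074, and the droplet coat gene Plin2 fell by 1.11 ± 0.081.

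In the iron and metal list 9 of 21 genes rose and 5 fell. Tfrc, the transferrin receptor, was at 8.23, 8.17 and 8.06 at 0 h and 10.50, 10.86 and 10.64 at 8 h, a rise of 2.51 ± 0.11, and the zinc and iron importer Slc39a14 rose by 2.34 ± 0.070, while ferroportin fell as given above. Steap3, an endosomal iron reductase, fell by 0.92 ± 0.071.

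Contractile and TGF-beta responsive genes were lower in 20 and higher in 8 of 33, 10 of them lower by at least 2-fold. Cnn2 (calponin 2) went from 13.14, 13.30 and 13.26 to 11.28, 11.38 and 11.36, Tpm1 (a tropomyosin) from 13.14, 13.15 and 13.19 to 11.47, 11.50 and 11.62 and Myl9 (a myosin light chain) from 12.16, 12.14 and 11.98 to 10.52, 10.50 and 10.58. Most of that drop came after 4 h, by 1.33 ± 0.071, 1.22 ± 0.054 and 1.16 ± 0.078, and 22 of the 33 genes were lower than at 4 h. Against that majority, Ccn1 and Smad7, quick targets of serum and TGF-beta, were higher than at 0 h by 0.98 ± 0.078 and 0.95 ± 0.068.

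The TEAD factors of the Hippo pathway bind GGAATG and act on many contractile genes. Within the 250 bases ahead of the start, on either strand, those 6 letters occurred in 13.2% of all genes, in 9 of the 24 contractile genes with a promoter entry and in 8 of the 16 that fell. The 2 of these with the largest fall are printed with the match in capitals, for Tpm1 at chr9:67049224-67049309 on the minus strand and for Mylk, the kinase of myosin light chains, at chr16:34784752-34784837 on the plus strand.
Tpm1: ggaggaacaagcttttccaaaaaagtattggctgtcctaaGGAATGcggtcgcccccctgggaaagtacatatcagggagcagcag
Mylk: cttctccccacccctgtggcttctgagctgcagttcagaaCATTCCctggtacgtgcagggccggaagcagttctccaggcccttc
Mylk fell by 1.33 ± 0.080, with 9.95, 9.61 and 9.78 at 0 h and 8.48, 8.50 and 8.36 at 8 h.

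Integrins and adhesion genes fell in 12 and rose in 5 of 26, with 8 rises after median centring. Itga1, a collagen receptor, fell from 10.57, 10.35 and 10.34 to 8.49, 8.75 and 8.60, and Itgb5 and Itga11 fell by 1.71 ± 0.070 and 1.66 ± 0.084. Itgb3 and Itga5, subunits of a vitronectin and of a fibronectin receptor, rose by 1.70 ± 0.080 and 1.58 ± 0.067. Matrix glycoproteins and proteoglycans fell in 19 and rose in 7 of 34: Lama4, a laminin chain, fell by 1.75 ± 0.082, and P4ha2, a collagen prolyl hydroxylase, rose by 1.47 ± 0.090. Matrix proteases and their inhibitors fell in 14 and rose in 5 of 24, with Mmp11 down by 1.73 ± 0.10 and Timp1, an inhibitor, up by 0.64 ± 0.087. The urokinase genes parted: Plaur, the receptor, rose by 2.10 ± 0.097 and Plau, the protease, fell by 1.46 ± 0.11. Collagens were split, 7 higher and 8 lower of 23 (30.4% and 34.8%, against 24.2% and 21.9% of all genes). The basement membrane chains Col4a1 and Col4a2, which lie head to head in the genome, rose by 1.27 ± 0.078 and 1.07 ± 0.093, and Col8a1 fell by 1.21 ± 0.094.

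Ligands and receptors of the main signalling families were then compared. In the BMP list 13 genes rose and 10 fell of 34 (38.2% and 29.4%, against 24.2% and 21.9% of all genes). Bmp4 aside, no member fell 2-fold. Bambi, a decoy receptor, rose by 1.32 ± 0.073, Bmper by 1.05 ± 0.095 and the target Id1 by 1.18 ± 0.085, while the receptor gene Bmpr1a fell by 0.69 ± 0.075. In the Wnt list 13 fell and 4 rose of 34 (38.2% and 11.8%, against 21.9% and 24.2% of all genes). There were 7 rises without 8 h replicate 2, 10 after median centring and 8 after quantile normalization. Wnt4 rose, with 9.17, 8.80 and 9.09 at 0 h and 11.23, 11.18 and 11.18 at 8 h, Fzd2, a receptor, fell by 1.71 ± 0.077 and Sfrp2, a secreted Wnt antagonist, by 1.05 ± 0.060. Notch genes fell in 9 of 18: Notch1 fell by 1.05 ± 0.075, its ligand gene Jag1 by 0.94 ± 0.071 and the coactivator Maml2 from 11.87, 11.62 and 11.65 to 9.98, 9.86 and 9.83.

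Growth factors and their receptors were lower in 20 and higher in 7 of 34, and 18 were lower than at 4 h. Vegfd, a lymphatic growth factor, fell from 12.99, 13.06 and 13.08 to 10.52, 10.86 and 10.80, by 1.65 ± 0.084 since 4 h. Receptor genes for platelet-derived and epidermal growth factor fell together: Pdgfrb by 1.72 ± 0.073, Pdgfra by 1.43 ± 0.059 and Egfr by 1.66 ± 0.080. Ereg, a ligand of that same receptor family, rose by 2.49 ± 0.10 and Vegfa by 0.73 ± 0.064.

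Genes of the adrenomedullin receptor moved in opposite directions. Calcrl, the receptor that Ramp3 joins, fell from 11.37, 11.41 and 11.42 to 8.69, 9.07 and 8.65, and Adm, the ligand adrenomedullin, from 11.02, 10.96 and 10.91 to 9.17, 9.25 and 9.20, while Ramp3 rose as given above. Natriuretic peptide receptors Npr2 and Npr3 fell by 1.29 ± 0.069 and 1.73 ± 0.080. In the list as a whole 6 rose and 7 fell of 19 (31.6% and 36.8%, against 24.2% and 21.9% of all genes). Prostaglandin genes rose in 5 of 18 (8 without 8 h replicate 2) and fell in 7. Their shares of 27.8% and 38.9% stand against the same shares of all genes. Ptgs2, cyclooxygenase 2, was still 1.37 ± 0.10 above 0 h and 1.73 ± 0.10 below 4 h, Ptges, the synthase of prostaglandin E2, rose by 0.93 ± 0.069, and the receptor genes Ptger1 and Ptger4 fell by 1.59 ± 0.088 and 1.48 ± 0.087.

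Interleukin-6 family and acute phase genes rose in 19 of 24. Apart from Lcn2, Fgl2 and Serpina3n, the cytokine genes Clcf1 and Il11 rose by 1.98 ± 0.082 and 1.94 ± 0.093, with 7.50, 7.57 and 7.42 at 0 h and 9.33, 9.55 and 9.43 at 8 h for Il11. Cp, ceruloplasmin, fell by 0.66 ± 0.096. C/EBP beta binds TTGCNNAA, which occurred within the same 250 bases in 10.0% of all genes and in 7 of the 19 genes of that list with a promoter entry, 5 of them among the 15 that rose. Lcn2, the largest rise of all, has 1 match, shown in capitals in the stretch chr2:32387908-32387989 on the minus strand.
Lcn2: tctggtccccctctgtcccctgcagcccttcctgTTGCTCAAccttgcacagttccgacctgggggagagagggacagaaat
The match begins 216 bases ahead of the start. In the NF-kB list 7 rose and 6 fell of 20. The inhibitor genes Nfkbia and Nfkbib rose by 0.90 ± 0.081 and 0.84 ± 0.066. Nfkbiz rose by 1.14 ± 0.10, and the subunit gene Rela was not past the test (-0.07 ± 0.074). Chemokine genes fell in 9 and rose in 6 of 22 (40.9% and 27.3%, against 21.9% and 24.2% of all genes). Cxcl5 was down by 1.09 ± 0.11 and Ccl17 up by 1.29 ± 0.075.

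Interferon-stimulated genes were lower in 22 of 35, a share of 62.9% against 21.9% of all genes, and 12 were lower at least 2-fold. Trim25 and Ifi35 were higher, and 5 genes were without 8 h replicate 2 or after median centring. Ifit3 went from 10.11, 10.40 and 10.51 to 6.52, 6.63 and 6.36, Ifit2 from 9.10, 8.85 and 8.58 to 6.80, 6.74 and 6.40 and Oasl2 from 9.73, 9.81 and 9.52 to 7.86, 7.32 and 7.65. IFIT proteins bind viral RNA and OAS-like proteins belong to the antiviral response. Trim30d and Trim30a, neighbouring genes of similar sequence whose probe sets may share targets, fell by 3.19 ± 0.16 and 2.22 ± 0.13.

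Interferon acts through the interferon-stimulated response element, searched here as GAAANNGAA on either strand. It was found ahead of the start in 7.99% of all genes, in 14 of the 28 interferon genes with a promoter entry and in 10 of the 19 that fell. The 4 with the largest fall and a match are printed with each match in the stretch in capitals, to show 4 of those 10 genes. They lie, for Ifit3, at chr19:34583387-34583475 on the plus strand, for Trim30d, at chr7:104507850-104507929 on the minus strand, for Trim30a, at chr7:104465194-104465268 on the minus strand and for Irgm1, at chr11:48871421-48871484 on the minus strand.
Ifit3: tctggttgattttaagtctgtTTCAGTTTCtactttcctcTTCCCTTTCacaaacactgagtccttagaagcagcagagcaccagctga
Trim30d: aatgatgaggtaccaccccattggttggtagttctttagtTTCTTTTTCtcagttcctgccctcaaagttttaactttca
Trim30a: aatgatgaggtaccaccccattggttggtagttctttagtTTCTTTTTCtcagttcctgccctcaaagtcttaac
Irgm1: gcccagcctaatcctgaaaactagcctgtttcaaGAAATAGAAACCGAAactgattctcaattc
Irgm1, an interferon-induced GTPase that the naming rule did not include and that was chosen for its match, fell by 1.66 ± 0.14, with 8.80, 8.64 and 8.87 at 0 h and 6.94, 7.29 and 7.11 at 8 h. In Irgm1 the capitals are 2 matches that overlap. For these 4 genes, picked for their large falls, no array at 8 h reached the range of the 0 h arrays. The 8 h arrays lay wholly below those of 0 h in 23.4% of all genes.

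Clock genes rose in 8 and fell in 7 of 20, on both sides including activators and repressors. Per1, a repressor with a glucocorticoid response, was at 10.09, 10.08 and 10.20 at 0 h and 11.54, 11.71 and 11.53 at 8 h, Cry1, its partner, rose by 1.63 ± 0.080 and Arntl, the activator also called Bmal1, by 1.24 ± 0.075. Nfil3, a repressor at D-box sites, rose from 8.51, 8.52 and 8.50 to 11.65, 11.79 and 11.62, while Dbp, Tef and Per3, of which Dbp and Tef activate at those sites, fell: Dbp from 11.98, 12.11 and 12.04 to 9.65, 9.78 and 9.57, Per3 by 2.26 ± 0.071 and Tef by 0.91 ± 0.066. Nr1d1 and Nr1d2, the REV-ERB repressors of Arntl, fell by 1.92 ± 0.083 and 2.07 ± 0.088. Hox genes, which hold positional identity, fell in 14 and rose in 0 of 29 (1 rose after median centring), with Hoxd4 lowest at -1.18 ± 0.084.

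Compared with 4 h, 2725 genes (13.7%) were higher and 2042 (10.2%) lower at 8 h, 17 of them (0.0853%) at least 2-fold higher and 149 (0.747%) at least 2-fold lower. Both comparisons use the same 8 h arrays, so each gene's values are set side by side. Of the 4822 genes above 0 h, 1334 were higher than at 4 h, 420 were lower and 3068 did not differ from 4 h past the test. Of the 4365 below 0 h, 1333 were lower still, 600 were higher than at 4 h and 2432 did not differ past the test.

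The largest falls since 4 h were those of Akr1c14 (2.95 ± 0.14), Sorbs2 (2.57 ± 0.096), Mpp7, Hacd4, Sema3a, Lrrc17, Serpinb9, Adgrg6, Nr4a3 and Gcnt4. Mpp7 and Gcnt4 had risen first: Mpp7, a scaffold of cell junctions, had a mean of 10.21 ± 0.016 (SD) at 0 h, 11.52 ± 0.093 at 4 h and 9.03 ± 0.14 at 8 h. Lrrc17, a secreted leucine-rich protein, and Sema3a, a secreted guidance cue, lost most of their signal in the second 4 h, when Lrrc17 fell by 2.00 ± 0.064 and Sema3a fell by 2.06 ± 0.091. The largest rises since 4 h were smaller. H2-M1, a class Ib histocompatibility gene, was at 5.91, 5.28 and 5.51 at 0 h and 7.37, 7.69 and 7.32 at 8 h and had risen by 1.62 ± 0.13 since 4 h, and Adam8, a membrane metalloprotease, rose by 2.31 ± 0.070 in all and by 1.23 ± 0.070 since 4 h. Mrgprf, an orphan receptor, and Ints3, a subunit of the Integrator complex, had dipped: Mrgprf had a mean of 11.13 ± 0.14 at 0 h, 9.55 ± 0.084 at 4 h and 11.08 ± 0.13 at 8 h, and Ints3 10.57 ± 0.094, 9.34 ± 0.086 and 10.78 ± 0.046.

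**Figure D5:**
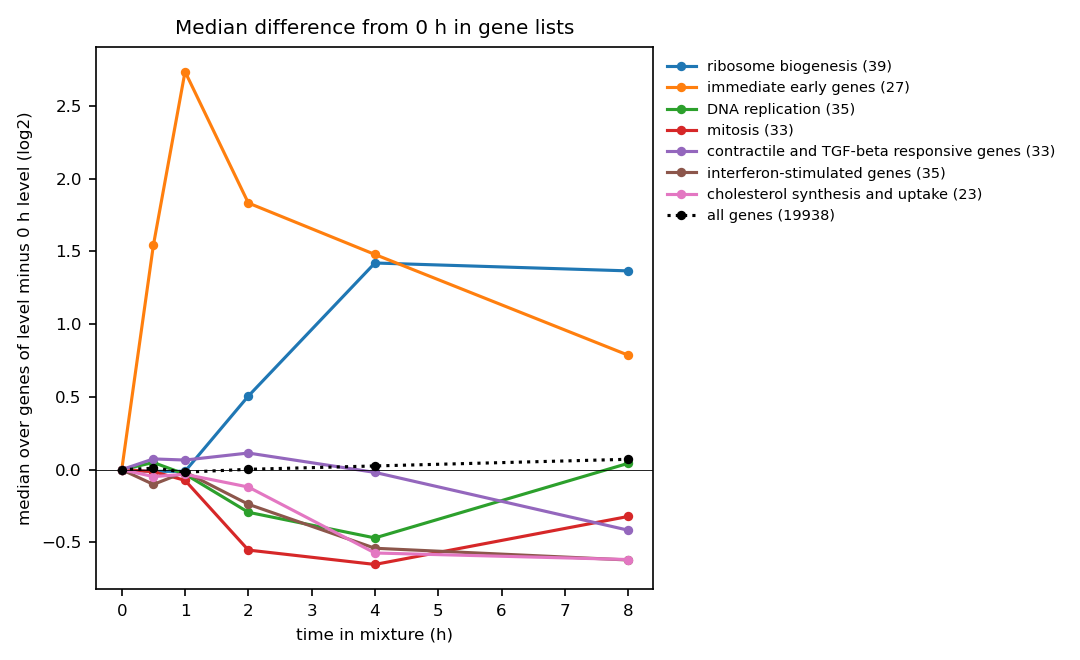
Median over list members of the mean level minus the 0 h mean (log2, vertical axis) against hours in mixture (horizontal axis) for 7 lists and for all 19938 genes (dotted), with the number of genes in brackets. Immediate early genes peak at 1 h at 2.74 and stand at 0.79 at 8 h, ribosome biogenesis holds its 4 h level of 1.42 at 1.37, the DNA replication and mitosis medians are lowest at 4 h, at -0.47 and -0.65, and contractile genes come down to -0.42 at 8 h.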

How the data were processed

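RNA of each of the 27 samples was hybridised to its own Affymetrix mouse gene array. The log2 values the authors deposited were made by RMA, per the submitters' processing notes, and ran from 3.35 to 14.85. No source used here names the software, its version or the genome build. RMA compresses large differences, so folds are those of the array scale. Groups are described as biological triplicates, but no culture is named, so p-values measure the spread between these arrays. With no scan date or batch in the labels, a batch could not be tested. No detection calls were used, and 3 arrays per group limit the precision.

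Of 28853 probe sets 21789 had 1 gene symbol, 1621 several and 5443 none; 21698 had an Entrez ID that matched RefSeq (GRCm38.p6). The probe set with the highest mean stood for each of 999 genes with several, which left 19938 genes. All columns of the table were matched to samples (0 unmatched). limma 3.58.1 in R 4.3.3 fitted 1 mean per group to all 27 arrays (prior degrees of freedom 6.56, residual 18), with two-sided tests adjusted by Benjamini and Hochberg over all genes. The fit was tested on simulated data.

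The 53 gene lists (1300 of 1398 entries measured), the members and the naming rule were chosen with earlier results of these data known, so no list is independent support for its own direction. Lists share genes. Eligible for naming were 505 genes: 21 genes of interest, the 15 largest rises and falls against 0 h and 10 against 4 h with arrays that do not overlap, and of each list the 5 largest called, the 2 largest against the majority, and all members where at most 20 were measured. The text names 228 of them, picked from these with values seen. Promoters are the 250 bases ahead of the RefSeq start.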

Additional observations from a re-analysis of the deposited data

How the results depend on the processing

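Under the alternatives (6 or 18 arrays in the fit, median centring, quantile normalization, a mean level of at least 6, the mean of probe sets, an intensity trend with robust prior, the replicate block, each array left out) the counts over all genes stayed within 1.5 times those reported. Leaving out 1 array at a time gave 4064 to 5804 genes higher and 3985 to 4540 lower than at 0 h, 546 to 651 and 725 to 900 at least 2-fold, and 2429 to 2730 higher and 1680 to 2240 lower than at 4 h. With the 6 arrays alone, 4273 were higher and 4029 lower. Same-numbered arrays of 0 h and 8 h correlated by 0.0964, 0.0808 and 0.0667 in their deviations from the group means, all under 0.1, so the numbers were not taken as pairs, although each array correlated best with its own number. The replicate block gave 4811 higher and 4351 lower genes. It changed no count by more than 1.5 times, and of the named genes it took the call of Krt14 (adjusted p = 0.0532). Counts of list members moved over 1.5 times in 74 cases and stayed within that in 1410; the counts named in the text that moved are given beside them. Of the named genes, Pparg, Igf1r, Ints3, Pole2, Nusap1, Pde8a, Krt14 and Krt19 lost their call against 0 h under 1 or more alternatives, and Mki67 its call against 4 h; the text uses the calls of Ints3, Pole2 and Nusap1 against 4 h alone, and these held. Cebpa, Atf4, Rela and Rfc3, not past the test against 0 h, passed it under 1 or 2 of them. Ptprc and Mrgprf, neither past the test, changed sign: Ptprc to 0.0653 and Mrgprf to 0.0117 with median centring, and with 1 array left out they ranged from -0.0314 to 0.0281 and from -0.1259 to 0.0221.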

Other observations

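Genes were also grouped by the form of their symbol, a grouping added after the values were seen and not tested. Over all genes 24.2% were higher and 21.9% lower at 8 h. Of 52 small nucleolar RNA genes 39 were higher and 0 were lower, with a median difference of 0.70 against 0.07 over all genes. Of 317 zinc finger genes named Zfp and a number 56 (17.7%) were higher and 122 (38.5%) lower, with a median of -0.11. Of 1027 olfactory receptor genes 68 (6.62%) were higher and 13 (1.27%) lower, with a median of 0.05, and of 291 microRNA genes 44 (15.1%) were higher and 37 (12.7%) lower, shares below those of all genes in both groups.

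Promoter letters were searched for 10 motifs, each in 1 list, within 250 bases ahead of the start on either strand. The results do not give 5 of these. The E-box CACGTG was in 2 of 34 ribosome biogenesis genes (5.88%) against 8.11% of all genes. AGAACA, only a part of the glucocorticoid receptor site, was in 4 of 20 glucocorticoid targets against 15.4%. The full receptor site was not searched. The sterol element TCACNCCAC was in 1 of 18 cholesterol genes (5.56%) against 1.2%. The D-box TTATGNAA was in 2 of 17 clock genes (11.8%) against 3.34%. The cell cycle element TTTGAA was in 11 of 29 mitosis genes (37.9%) against 15.7%. These counts are descriptions of letters and were not tested.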
